A study of Mus musculus with 13 samples.

Results

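The genes described here are 10 components of the tumour necrosis factor (TNF) death receptor pathway and of necroptosis: the receptors Tnfrsf10b, Tnfrsf19, Tnfrsf1a and Tnfrsf1b, the death domain adaptor Fadd, the protease Casp8 and its inactive relative Cflar, the kinases Ripk1 and Ripk3, and the membrane effector Mlkl. They are 10 of the 16382 genes in the deposited tables, and all 10 passed the filter on low counts, which left 13142 genes for testing. The list was chosen on the measured difference between the treatments, because Tnfrsf10b was higher and Tnfrsf19 lower in treated cells, so the differences between the treatments in these 10 genes are given as a description without a p-value.

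RNA-seq was carried out on C2C12 myotubes, the multinucleated cells that form when the C2C12 mouse myoblast line, which the labels give as wild type, is allowed to differentiate. At day 8 of differentiation the myotubes received palmitoylethanolamide (PEA), a fatty acid amide, at 10 μM, or its vehicle DMSO (CON), for 24 h, and 6 libraries of each treatment were compared. All libraries therefore carry the same line and the same differentiation, and the line is a clonal cell line grown without the other cells of muscle. The study states that its cultures also hold some unfused myoblasts, and it names these as a possible source of cell cycle transcripts. Libraries held between 12354845 and 50397444 estimated counts, and the total of CON replicate 1 was 2.25 times that of the library next in depth. By the study's methods each treatment had duplicate wells, as technical replicates, in an experiment carried out 3 times, so the 6 libraries of a treatment stand for 3 repeats of it. No label ties a library to a repeat, so n = 6 counts libraries throughout, and the SDs, standard errors and p-values measure the spread between libraries, which is in part technical.

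The labelled cell type was checked against its markers. All 12 myotube markers were detected, with summed normalized counts of 109050 to 169075 in CON and 111885 to 132784 in PEA, and 4 of the 12 (Mymx, Tnnt3, Myh8 and Actn2) were lower in PEA (edgeR quasi-likelihood test, Benjamini-Hochberg adjusted p below 0.05). All 12 had a negative log2 fold change, with a median of -0.23, and the number called lower was 1 when PEA replicate 6 was left out, 8 when CON replicate 3 was, and 10 when CON replicates 3 and 6 both were. The 6 myoblast markers summed to 16382 to 18170 in CON and 15244 to 16769 in PEA, with Cd34 higher in every fit that left out 1 library and Cdh15 lower in the fit to all libraries. The call of a lower marker among these 6 was kept only without CON replicate 3, PEA replicate 1 or PEA replicate 3 of those fits. Of 8 macrophage and T cell markers 6 were in the tables, and their summed level was 76.7 to 156 in CON and 105 to 135 in PEA, most of it Cd68, while the leukocyte gene Ptprc averaged 0.581 normalized counts. The 4 of 6 endothelial markers in the tables summed to 8.23 to 28.5 in CON and 12.6 to 26.5 in PEA, and the 2 of 6 adipocyte markers to at most 46.3 and 46.2. The part of the lower myotube markers in the differences of the 10 genes was not tested. In bulk RNA, fewer cells of a type and less RNA per cell cannot be told apart.

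Death receptors are membrane receptors of the TNF family whose cytoplasmic death domain gathers adaptor proteins when ligand binds. In the complex that forms, FADD recruits caspase-8, whose activity starts apoptosis, and c-FLIP, the product of Cflar, restrains that activity. Where caspase-8 is held back, RIPK1 and RIPK3 assemble through their shared interaction motif, RIPK3 phosphorylates MLKL, and MLKL breaks the plasma membrane, which is necroptosis. TNF also acts on skeletal muscle fibres, and the receptor TNFR1, the product of Tnfrsf1a, can signal through RIPK1 to NF-κB without cell death.

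Promoter sequences were taken from RefSeq for 9 of the 10 genes, all but Tnfrsf10b, in 11 windows that reach from 250 bases before to 50 bases after an annotated start site. They were searched because 42 of 42 measured interferon response genes had a positive difference in these libraries. The interferon-type motif, which is GAAA, any 2 bases and GAAA again, was read on both strands and was present in 3 of the 9 genes, and in 3.99% of the 27025 genes with a promoter in the table. The matches are printed here within 30 bases of GRCm39, in the orientation of each gene and with the matching letters in capitals, because they lie within 16 bases of the start site in each case.
Ripk1: aacgttcccgGAAATCGAAAagcgcggaac
Tnfrsf1b: ggcctgagggTTTCGCTTTCagtcaccagc
Cflar: ccacgtctgcTTTCGGTTTCtgggcgtctc
The Ripk1 window is chr13:34186842-34186871 on the plus strand, and its match reads along the gene across the start site, from base -5 to base 5. The Tnfrsf1b window is chr4:144973431-144973460 on the minus strand, and its match is on the opposite strand, from base -10 to base -1. The Cflar window is chr1:58750646-58750675 on the plus strand, with a match on the opposite strand from base 7 to base 16, inside the transcribed part. Of these 3 genes Ripk1 was higher in PEA, while Tnfrsf1b and Cflar did not pass the threshold. An ATF4-type motif, TGATGNAA, was in 0 of the 9 genes against 4.51% of all genes, and an NF-κB-type motif, GGGA, any base and TTTCC, in 0 of 9 against 0.466%. A match is a description of letters only, and the absence of one says only that these letters are not in the window.

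In the comparison of PEA with CON, Tnfrsf10b, Casp8, Ripk1 and Mlkl were higher in PEA by 1.20 to 1.31 times, Tnfrsf19 was lower, and the other 5 genes did not pass the threshold. Called genes were therefore 5 of 10, 4 higher and 1 lower, beside 11.0% of all genes tested, 6.31% higher and 4.74% lower. The groups did not overlap for 2 of the 10, Tnfrsf10b and Mlkl, both higher, beside 4.34% of all genes, 2.53% higher and 1.81% lower. Since the list was chosen on this contrast, nothing is read from these shares. The median log2 fold change of the 10 genes was 0.19, beside 0.01 over all genes tested.

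**Figure D1:**
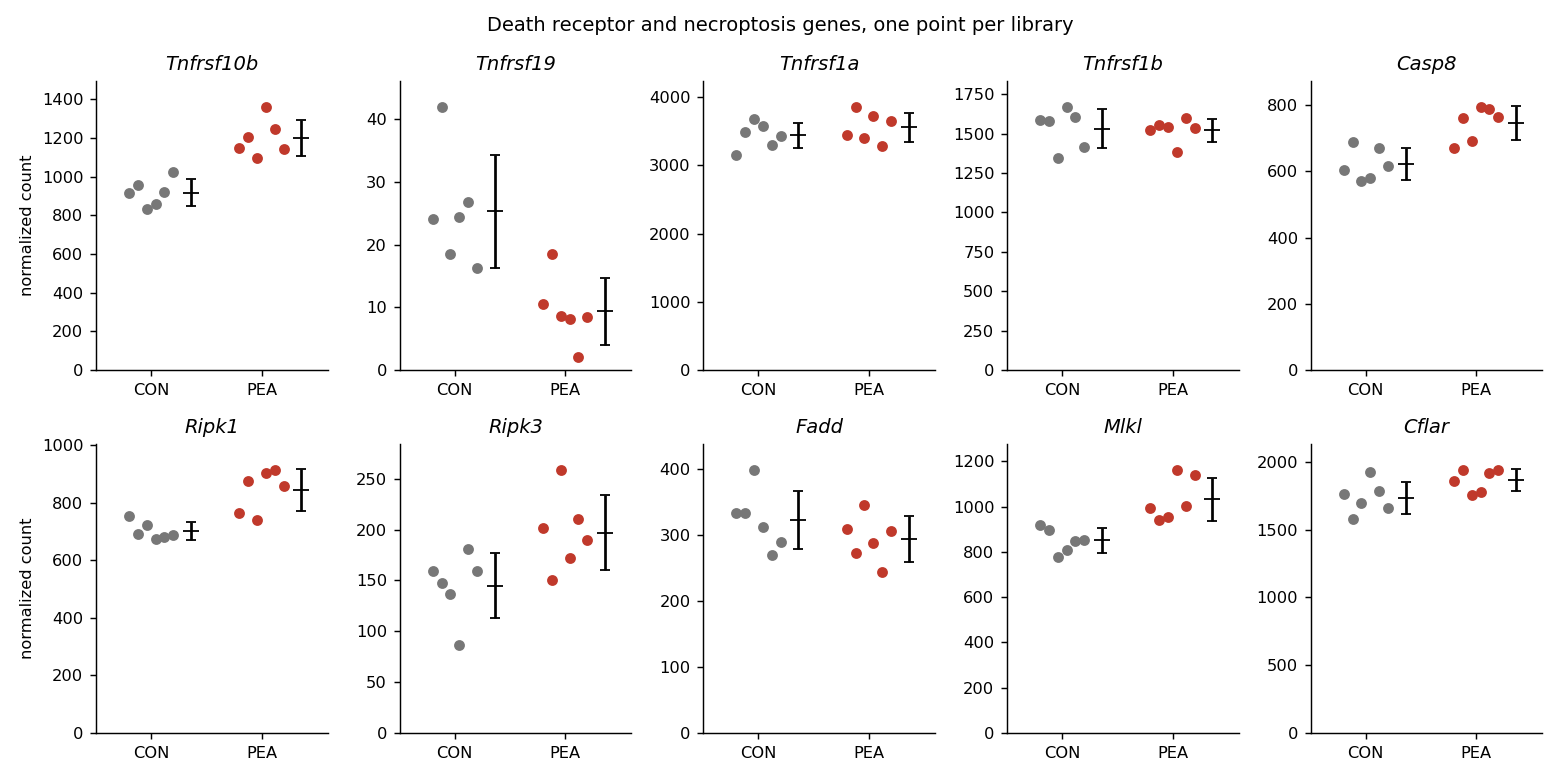
Normalized counts of the 10 genes in each library, with CON in grey and PEA in red on a linear axis from 0 in each panel, and the mean with its SD to the right of the points (6 libraries per group). The 6 PEA points of Tnfrsf10b and Mlkl lie above all CON points, those of Casp8 and Ripk1 do so in 5 of 6 libraries, and 5 of 6 PEA points of Tnfrsf19 lie below all CON points.

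Tnfrsf10b (ENSMUSG00000022074, chr14:70004916-70021860, plus strand) encodes the death receptor for TRAIL, the ligand made from Tnfsf10. Its normalized counts, which are the estimated counts divided by a factor per library, had a lowest value of 831, a median of 916 and a highest value of 1022 in CON. In PEA they ran from 1095 through a median of 1176 to 1358. All 6 PEA libraries were above all 6 CON libraries. The means were 916 ± 68.4 in CON and 1199 ± 93.7 in PEA (SD, n = 6 each), a log2 fold change of 0.39 with a standard error of 0.06. PEA replicate 4 held the highest value and without it the log2 fold change was 0.35.

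Tnfrsf19 (ENSMUSG00000060548, chr14:61201283-61284366, minus strand) encodes TROY, a receptor of the same family whose cytoplasmic part has no death domain. It was the gene with the lowest counts of the 10, with 2 to 63 estimated counts per library. Normalized counts ran from 16.3 through a median of 24.2 to 41.9 in CON and from 2.04 through 8.52 to 18.5 in PEA. PEA replicate 2, at 18.5, lay among the CON libraries, and the other 5 PEA libraries were below them. The means were 25.3 ± 9.01 in CON and 9.37 ± 5.33 in PEA, and the log2 fold change was -1.43 with a standard error of 0.37. The spread was wide at this depth, with a coefficient of variation of 35.6% in CON and 56.9% in PEA. Without PEA replicate 6 the estimate was -1.40 and the gene was no longer called, and a filter of 10 counts in every library removed it.

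Neither TNF receptor passed the threshold. Tnfrsf1a (ENSMUSG00000030341, chr6:125325566-125339632, plus strand), which encodes TNFR1 with its death domain, ran from 3158 through 3462 to 3678 in CON and from 3281 through 3547 to 3851 in PEA. The groups overlapped, and the log2 fold change was 0.05 with a standard error of 0.05. Tnfrsf1b (ENSMUSG00000028599, chr4:144938938-144973477, minus strand) encodes TNFR2, which lacks a death domain. Its values ran from 1343 to 1666 in CON and from 1381 to 1595.5 in PEA, and its log2 fold change was -0.01 with a standard error of 0.06. The sign of this last estimate turned to positive, with values from 0.00158 to 0.0199, when CON replicate 1, 2, 4 or 5 or PEA replicate 4 was left out.

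Casp8 (ENSMUSG00000026029, chr1:58834375-58886665, plus strand), the initiator caspase of the pathway, ran from 569 through a median of 610.1 to 688 in CON and from 671 through 761 to 793 in PEA. Of the PEA libraries, 5 were above the highest CON library, which was CON replicate 2, and PEA replicate 1 lay just below it. The means were 621 ± 48.2 and 745 ± 51.0, with a log2 fold change of 0.27 and a standard error of 0.06. Without CON replicates 3 and 6 together, a choice made after the data had been seen and described with the interferon score, the log2 fold change was 0.24 and Casp8 was not called.

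Cflar (ENSMUSG00000026031, chr1:58750321-58798047, plus strand) lies before Casp8 on the same strand and encodes c-FLIP, which resembles caspase-8 but lacks its catalytic activity. Its normalized counts ran from 1577 through 1731 to 1925 in CON and from 1753 through 1886 to 1939 in PEA. The groups overlapped, and all 6 PEA libraries were above the CON median. The log2 fold change was 0.11 with a standard error of 0.05, and it was not called. Fadd (ENSMUSG00000031077, chr7:144131055-144136211, minus strand) ran from 270.4 through 323 to 399 in CON and from 244 through 298 to 346 in PEA. Its log2 fold change was -0.14 with a standard error of 0.10, and 1 of 6 PEA libraries was above the CON median. Neither gene passed the threshold, and the ranges of the groups overlapped for both.

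The kinases of the necroptosis complex both had higher means in PEA, and their precision was unequal. Ripk1 (ENSMUSG00000021408, chr13:34186141-34221130, plus strand) ran from 673 through 690.4 to 753 in CON and from 742 through 867 to 914 in PEA. Only PEA replicate 3, at 742, was within the CON range, whose top was CON replicate 1. The means were 701 ± 30.5 and 843 ± 72.9, with a log2 fold change of 0.27 and a standard error of 0.06.

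Ripk3 (ENSMUSG00000022221, chr14:56022452-56026324, minus strand), the kinase that acts on MLKL, had 71 to 416 estimated counts per library. Normalized counts ran from 86.3 through 153 to 181 in CON and from 151 through 196 to 259 in PEA. The lowest value was that of CON replicate 4, and 4 of 6 PEA libraries were above the CON range. The means were 145 ± 32.3 and 197 ± 36.9, so that the log2 fold change of 0.44 was the largest positive estimate of the 10 genes and had a standard error of 0.16. It did not pass the threshold in edgeR, and leaving out CON replicate 4 brought it to 0.34. In DESeq2 14.5% of 13202 genes were called in either direction, and 987 of the 13202 were higher. Ripk3 passed there with a log2 fold change of 0.44, which made 5 of the 10 genes higher.

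Mlkl (ENSMUSG00000012519, chr8:112036296-112065168, minus strand), the pseudokinase that permeabilizes the membrane, ran from 776 through 851 to 919 in CON and from 941 through 999 to 1162 in PEA. The highest CON library, replicate 1, and the lowest PEA library, replicate 2, were close, and the groups did not overlap. The means were 851 ± 53.5 and 1033 ± 95.0, with a log2 fold change of 0.28 and a standard error of 0.06.

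**Figure D2:**
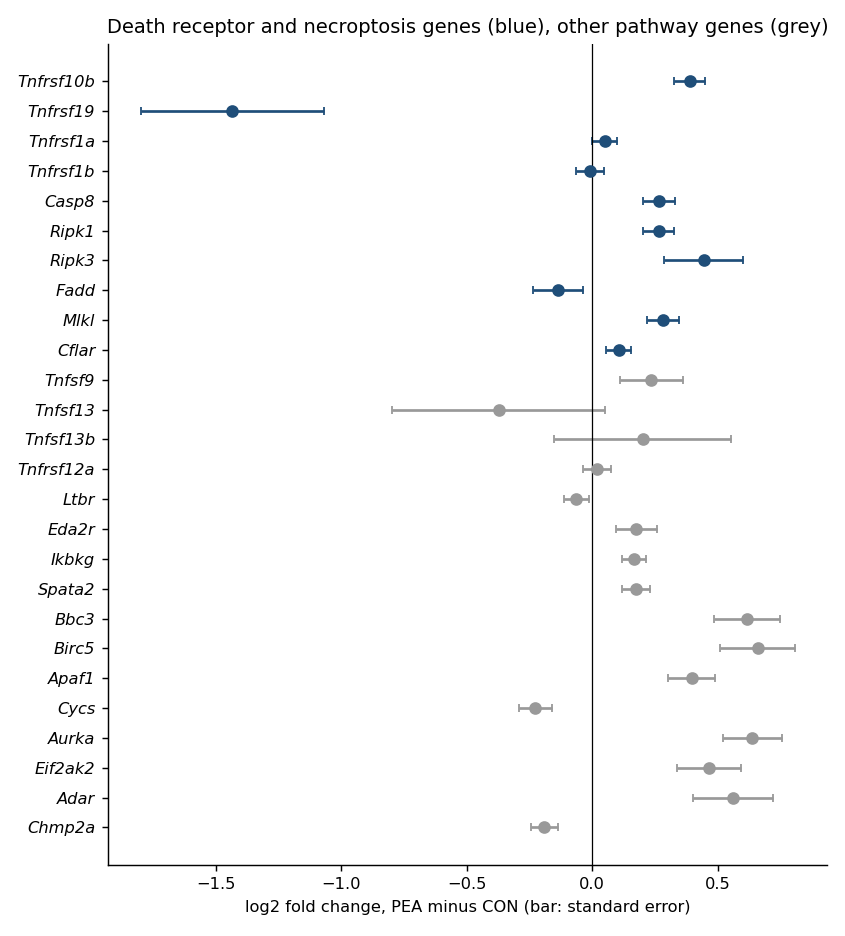
Log2 fold change (PEA minus CON, horizontal axis) of the 10 genes in blue and of the named genes of the pathway lists in grey, with bars of 1 standard error from the fit across all genes. Tnfrsf19 stands alone at -1.43 with the widest interval of the 10, and Casp8, Ripk1 and Mlkl lie together between 0.27 and 0.28.

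Levels were compared between genes as CPM, counts scaled to the size of the library, per kilobase of exon. In CON the order was Tnfrsf1a at 57.0, Tnfrsf1b at 16.1, Casp8 at 10.5, Tnfrsf10b at 8.39, Mlkl at 7.66, Cflar at 6.26, Fadd at 4.31, Ripk1 at 3.33, Ripk3 at 2.99 and Tnfrsf19 at 0.177. Among neighbours in this order, the ranges over libraries overlapped for Tnfrsf10b and Mlkl and for Ripk1 and Ripk3, and the range of Ripk3 also reached that of Fadd, 2 places above it. The level of Tnfrsf1a was 3.53 times that of Tnfrsf1b, and 4.71 times with the longest transcript as the length.

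In PEA the first 6 places were held by the same genes in the same order, from Tnfrsf1a at 59.0 to Cflar at 6.73. Below them came Ripk3 at 4.07, Ripk1 at 4.01 and Fadd at 3.93, each within the range of its neighbour, and Tnfrsf19 at 0.0657. The ranges of Casp8 and Tnfrsf10b, at 12.6 and 11.0, overlapped in PEA and did not in CON. These places depend on the length used: with the longest transcript in place of all exons, 4 of the 10 genes held their place in CON, among them Tnfrsf1a first and Tnfrsf19 last. On that scale Tnfrsf10b, at 19.7, stood above Tnfrsf1b, at 16.2, in PEA without overlap.

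**Figure D3:**
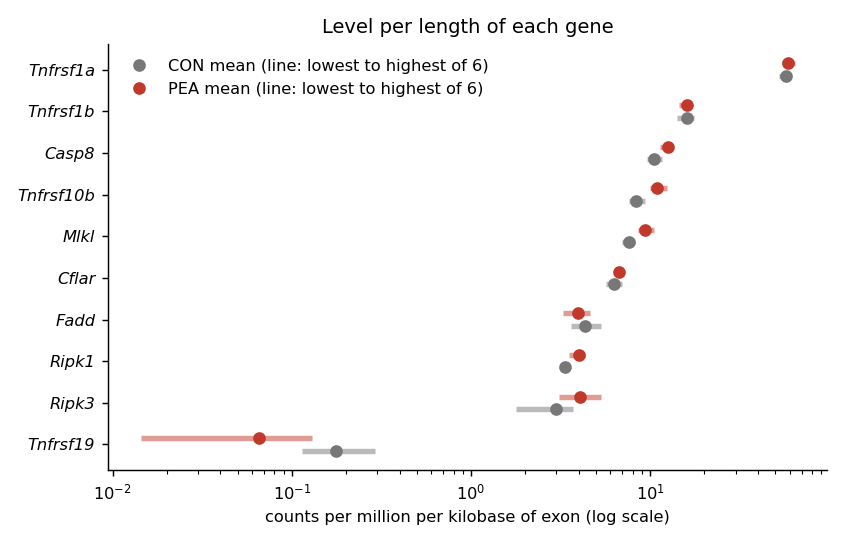
Level per length of each gene in CPM per kilobase of exon on a log axis, as the mean of 6 libraries for CON (grey) and PEA (red), with a line from the lowest to the highest library. Tnfrsf1a is highest in both treatments, and Tnfrsf19 lies 16.9 times below Ripk3, its neighbour in CON.

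Ratios of levels per length were computed within each library for partners of a complex. The ratio of Cflar to Casp8 was 0.599 ± 0.0747 in CON and 0.535 ± 0.0370 in PEA, and the groups overlapped. With the longest transcript as the length it was 1.06 ± 0.132 and 0.947 ± 0.0656. Casp8 was thus the higher of the 2 genes in both treatments with all exons. With the longest transcript the mean was in favour of Cflar in CON and of Casp8 in PEA. Libraries then ran from 0.865 to 1.26 in CON and from 0.845 to 1.05 in PEA. With all exons, Casp8 over Fadd was 2.49 ± 0.448 and 3.27 ± 0.572, Ripk1 over Ripk3 1.17 ± 0.326 and 1.02 ± 0.241, and Mlkl over Ripk3 2.69 ± 0.715 and 2.36 ± 0.495, and the groups overlapped for each. Mouse cells also make TRAIL receptors without a death domain from Tnfrsf22 and Tnfrsf23, close paralogs between which reads may be split. Tnfrsf23 had 23.2 per kilobase in CON and 24.1 in PEA and was not called (log2 fold change 0.06, edgeR adjusted p = 0.471). Tnfrsf10b over Tnfrsf23 was 0.362 ± 0.0279 in CON and 0.456 ± 0.0400 in PEA, and the groups met without overlapping, with the highest CON and the lowest PEA library both at 0.412. Tnfrsf22 had 6.31 and 6.58 per kilobase (adjusted p = 0.693). Fas, the other classical death receptor, had 9.51 and 10.7 (adjusted p = 0.211). Tnfrsf22, Tnfrsf23 and Fas were named after their values had been seen.

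The other genes of the pathway were taken from 5 lists with 122 genes in all, of which 114 were in the tables and 106 were tested. Of these 106, 9 were higher and 2 lower in PEA, or 10.4%, close to the 11.0% of all genes, and their median log2 fold change was 0.05. Beside these lists, 12 of 42 interferon response genes, 20 of 29 genes of the amino acid stress response, 9 of 30 p53 targets and 3 of 27 NF-κB targets were higher in PEA, and 2 NF-κB targets were lower. These counts moved when 1 library was left out, most of all for interferon, with 2 called genes without CON replicate 6 or PEA replicate 2, 4, 5 or 6 and 42 without CON replicate 2. The range was 13 to 24 for amino acid stress, lowest without PEA replicate 5, 5 to 14 for p53, lowest without PEA replicate 5 or 6, and for NF-κB targets 1 to 3 higher and 1 to 4 lower, with 4 lower without CON replicate 2. DESeq2 called 10 and limma-voom 36 of the interferon genes. Some genes stand in more than 1 list, Bbc3 among them.

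No ligand of the family passed the threshold, since 0 of the 3 tested were called by edgeR, 0 had an unadjusted p below 0.05, and DESeq2 called 0 of the 3 to which it gave an adjusted p. Tnf averaged 4.03 normalized counts in CON and 4.96 in PEA, and Tnfsf10, which encodes TRAIL, 5.95 and 9.69, with 1 to 22 estimated counts per library. Both were below the count filter of the edgeR fit and received no adjusted p in DESeq2, and edgeR without that filter did not call them. They were named after their values had been seen. Tnfsf9, the ligand with the most counts, had 236 ± 39.4 against 278 ± 45.1 with PEA (log2 fold change 0.24, SE 0.13, edgeR adjusted p = 0.237). Tnfsf13 and Tnfsf13b, with means of 25.6 and 15.1, had adjusted p-values of 0.616 and 0.754.

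Of the 13 other receptors tested 0 were called by edgeR and 0 by DESeq2, and 1, Eda2r, had an unadjusted p below 0.05. Tnfrsf12a, which encodes the TWEAK receptor of muscle, had a normalized count of 5009.5 ± 489 under CON and 5069 ± 142 under PEA (log2 fold change 0.02, adjusted p = 0.861), a sign that turned to -0.02 without CON replicate 4. Ltbr, the lymphotoxin receptor, differed by -0.06 (adjusted p = 0.448). Eda2r, which encodes a receptor for ectodysplasin, differed by 0.18 (adjusted p = 0.176).

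Among 30 genes of the receptor complexes 2 rose and 0 fell by edgeR or DESeq2, where 2 had an unadjusted p below 0.05 in the lower direction. Ikbkg, the regulatory subunit of the IκB kinase complex, had 1698 ± 90.8 against 1903 ± 103 with PEA (log2 fold change 0.17, SE 0.05, edgeR adjusted p = 0.0392). Spata2, which links the deubiquitinase CYLD to the linear ubiquitin ligase, had 690.4 ± 30.6 and 779 ± 50.3 (0.18, SE 0.05, adjusted p = 0.0490). These calls were marginal, as Ikbkg was called in 5 and Spata2 in 2 of the 12 fits that left out 1 library. Traf2, Birc2, Xiap and Cyld, named after their values had been seen, differed by -0.01, -0.04, 0.00 and 0.03 on the log2 scale.

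Among 32 caspases, BCL-2 proteins and partners 4 rose and 1 fell. Bbc3, which encodes the BH3-only protein PUMA, rose from 161 ± 30.5 to 246 ± 35.7 normalized counts without overlap (log2 fold change 0.62, SE 0.13, edgeR adjusted p = 0.00837). Apaf1, the scaffold of the apoptosome, rose from 343 ± 46.4 to 454 ± 46.6 (0.40, SE 0.09, adjusted p = 0.0149). Birc5, known for its part in mitosis as survivin, rose from 444 ± 134 to 698 ± 63.7 (0.66, SE 0.15, adjusted p = 0.0111). Cycs, which encodes cytochrome c, fell by 0.23 on the log2 scale (SE 0.06, adjusted p = 0.0343). Bax, named after its values had been seen, differed by 0.11 (adjusted p = 0.0691).

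Among 28 other genes of necroptosis 3 rose and 1 fell. Aurka, a mitotic kinase, rose from 378 ± 86.0 to 587 ± 38.8 without overlap (log2 fold change 0.64, SE 0.12, edgeR adjusted p = 0.00339). Eif2ak2, which encodes the RNA-activated kinase PKR, had 1317 ± 339 and 1812 ± 75.3 without overlap (0.47, SE 0.13, adjusted p = 0.0285). Adar, the RNA-editing enzyme that limits sensing of double-stranded RNA, had 1319 ± 421 and 1939 ± 188 (0.56, SE 0.16, adjusted p = 0.0337). Chmp2a, a subunit of the membrane repair complex ESCRT-III, fell by 0.19 (SE 0.05, adjusted p = 0.0314). Zbp1, the nucleic acid sensor that engages RIPK3, had the largest estimate of these lists at 1.01 with an SE of 0.41 and was not called (adjusted p = 0.115). Its normalized counts were 772 ± 627 in CON and 1550 ± 486 in PEA, with the wider spread in CON, and it was named after its values had been seen.

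Of the 11 called pathway genes, Bbc3, Birc5, Apaf1 and Aurka were called in each of the 12 fits that left out 1 library. Without CON replicate 6, PEA replicate 2 or PEA replicate 6 the lists held these 4 as higher and 0 as lower by edgeR, where 6 to 9 genes had an unadjusted p below 0.05 in the lower direction. Of the others, calls were made in 4 (Cycs), 5 (Adar), 6 (Chmp2a) and 8 (Eif2ak2) of those fits. Without CON replicates 3 and 6 together, a choice made after the data had been seen, 5 genes of the lists were higher and 0 lower by edgeR, where 4 had an unadjusted p below 0.05 in the lower direction. Adar then differed by 0.32 and Eif2ak2 by 0.26, and Bbc3, Birc5 and Aurka, also called, by 0.47, 0.53 and 0.51. Apaf1, at 0.31, Ikbkg, at 0.14, Spata2, at 0.17, Cycs, at -0.16, and Chmp2a, at -0.15, were not called in that fit. Eif2ak2, Adar and Zbp1 are interferon-induced genes, and the SD of each was larger in CON than in PEA.

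The interferon score, the mean over 42 response genes of log2 CPM centred on each gene's mean, was -1.54 in CON replicate 3, -1.38 in CON replicate 6, between -0.26 and 0.60 in the other CON libraries, and between 0.14 and 0.71 in PEA. Of its 42 genes 42 had a positive log2 fold change, with a median of 0.76, and 12 were called, or 6 without CON replicates 3 and 6. The treatments overlapped in the score, as CON replicate 2, at 0.60, lay above PEA replicates 1, 3, 5 and 6. The fit without CON replicates 3 and 6 was an alternative added after the data had been seen. In it Tnfrsf10b, Ripk1 and Mlkl were higher, with log2 fold changes of 0.40, 0.27 and 0.25, and Tnfrsf19 was lower, at -1.64. These are 3 and 1 of the 10 genes, chosen on this contrast, and nothing is read from their number. Over all genes that fit called 471 higher and 370 lower, against 829 and 623 with all libraries. With all libraries the log2 fold changes of Tnfrsf10b, Ripk1, Mlkl and Tnfrsf19 were 0.39, 0.27, 0.28 and -1.43. The part of the interferon response in these differences was not tested.

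Within the treatments the 10 genes were compared with 4 scores, of interferon, amino acid stress, p53 and NF-κB response genes, after centring genes and scores in CON and in PEA separately, so that the difference between the treatments did not enter. Of the 40 relations 0 had an adjusted p below 0.05 by Pearson's r or Spearman's rho (permutation test, 100000 resamples within groups, two-sided), and 4 had an unadjusted p of Pearson's r below 0.05. Of these 4 relations, 3 were those of Casp8. With the p53 score Casp8 had r = 0.73 (permutation p = 0.00709, adjusted p = 0.245) and rho = 0.77 (permutation p = 0.00675, adjusted p = 0.270) over 12 libraries, with r = 0.73 in CON and 0.91 in PEA, and 0.61 without CON replicate 3 and PEA replicate 1. With the amino acid stress score it had r = 0.72 (permutation p = 0.0123, adjusted p = 0.245) and rho = 0.69 (permutation p = 0.0221, adjusted p = 0.294), and 0.54 without CON replicates 2 and 3. With the interferon score it had r = 0.62 (permutation p = 0.0482, adjusted p = 0.373) and rho = 0.64 (permutation p = 0.0374, adjusted p = 0.299), and 0.65 without CON replicates 3 and 6.

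The fourth was Tnfrsf1b with the p53 score, at r = 0.71 (permutation p = 0.0262, adjusted p = 0.349) and rho = 0.71 (permutation p = 0.0220, adjusted p = 0.294). It was 0.86 in CON and 0.17 in PEA, and 0.55 without CON replicate 3 and PEA replicate 1. The scores are not separate measures, as interferon correlated at 0.93 with amino acid stress and at 0.91 with p53 within the treatments. Ripk1 had r = 0.17 with the interferon score (permutation p = 0.475, adjusted p = 0.703) and rho = 0.08 (permutation p = 0.766, adjusted p = 0.851), and 0.35 without CON replicates 3 and 6. Taken separately it was -0.22 in CON and 0.95 in PEA, over 6 libraries each, and the difference between these values was not tested. The value in PEA rests on a split of the libraries. PEA replicates 1 and 3 had scores of 0.14 and log2 CPM of Ripk1 of 5.32 and 5.28. PEA replicates 2, 4, 5 and 6 had scores of 0.56 to 0.71 and log2 CPM of 5.49 to 5.58. Mlkl had r = 0.41 with the interferon score (permutation p = 0.133, adjusted p = 0.488) and rho = 0.24 (permutation p = 0.456, adjusted p = 0.627), and 0.33 without CON replicates 3 and 6.

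**Figure D4:**
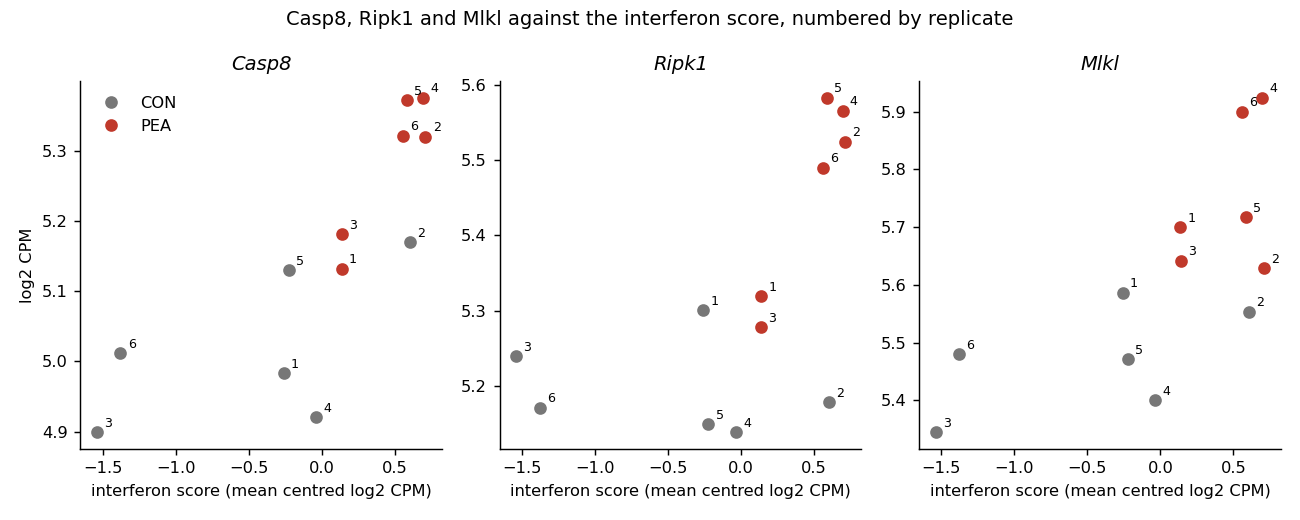
Log2 CPM of Casp8, Ripk1 and Mlkl (vertical axis, not from 0) against the interferon score of the same library (horizontal axis), with CON in grey, PEA in red and the replicate number beside each point. CON replicates 3 and 6 stand apart at the left with scores of -1.54 and -1.38, and Ripk1 has r = -0.22 with the score in CON and 0.95 in PEA. Within PEA, replicates 1 and 3 have the lowest scores and the lowest Ripk1 values.

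From library to library the 10 genes varied together in some pairs and in opposite directions in others. Over the 12 libraries, centred within treatment, Tnfrsf10b and Casp8 had r = 0.67, Tnfrsf10b and Mlkl 0.54, Casp8 and Mlkl 0.54, and Tnfrsf1b and Cflar 0.52. The most negative values were -0.68 for Tnfrsf1a with Ripk3, -0.62 for Tnfrsf10b with Fadd, -0.60 for Casp8 with Fadd and -0.56 for Ripk3 with Cflar. Casp8 and Ripk1 had 0.96 in PEA, where replicates 1 and 3 were lowest in both genes, and -0.32 in CON. These values describe 12 libraries and carry no p-value, and both genes of a pair were read from the same library and scaled with the same factor, so that they share its depth.

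The genes most like each of the 10 were the 3 with the highest Pearson's r of log2 CPM, centred within treatment, over the 12 libraries and among 11608 genes with a mean of at least 50 normalized counts. Each r is the top of that many values from 12 libraries, so high values were picked by the search. They are a description and were not tested against chance. Tnfrsf10b was nearest to Zfp174 (0.96), Mcm9 (0.91) and Ciao3 (0.91), and Casp8 to Hmox1 (0.95), Tmem8b (0.94) and Bin3 (0.93). For Mlkl they were Usp16 (0.94), Rassf4 (0.89) and Iqcc (0.86), and for Ripk1 Afg3l2 (0.89), Kif3b (0.88) and Nars1 (0.88). Ripk3 was nearest to Ppig (0.91), Mettl8 (0.90) and Rps3a1 (0.89), and Fadd to Cdc37l1 (0.89), Tiprl (0.88) and Mpc1 (0.86). Tnfrsf1a was nearest to Rpl3 (0.92), Sphk1 (0.91) and Pgs1 (0.91), Tnfrsf1b to Afdn (0.94), Tgfb3 (0.93) and Msi2 (0.93), and Cflar to Gm15361 (0.94), Trappc10 (0.90) and Zbtb43 (0.89). None of the 10 genes was among the nearest 3 of another. Tnfrsf19 was below the minimum level.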

How the data were processed

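The authors filtered the reads for quality and, in Partek Flow, aligned them to mm39 and assigned them to Ensembl genes. The submitters' processing notes name Partek, STAR and DESeq2. The first table they deposited holds estimated counts, of which 45.0% of the values above 0 are not whole (tolerance 0.001). The other table they deposited gives each value divided by 1 factor per library (DESeq2 median ratios), a signal on a linear scale, here called normalized counts. Both hold 16382 genes for 12 libraries, and symbols came from GENCODE for GRCm39 for 16343 of them. PEA replicate 2 and its top-up run are 2 entries of the labels with 1 row of values, counted as 1 library.

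Estimated counts were rounded and tested with edgeR 4.0.16 in R 4.3.3 (quasi-likelihood, TMM, default filter on low counts, Benjamini-Hochberg over 13142 genes, threshold 0.05), and the script was tested on simulated data. Log2 CPM used a prior count of 2. Alternatives used DESeq2 1.42.0 and limma 3.58.1. Levels per length are TMM-scaled CPM per kilobase of the union of exons. Promoters are those of the RefSeq table for GRCm38.p6, and the windows shown were placed in GRCm39 by exact match. The genes and lists were chosen with earlier results of these data known. Named pathway genes are, in each list, up to 4 called per direction with the smallest p, or the 3 with the highest mean where none was called, and others are marked in the text. Of the genes this rule selects, 1 is not reported here. The total count per library sets the precision, and the errors hold counting noise and spread among libraries alone.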

Additional observations from a re-analysis of the deposited data

Results flagged for a closer look

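Of 62 groups of 6 libraries examined for a single far value, 1 was picked out, where chance gives about 1 in 20. Tnfrsf1b in PEA replicate 4 had 1381 normalized counts, and the nearest other PEA library had 1525, a gap of 0.673 of the range of the group, which is past the 95% critical value of Dixon's ratio for 6 libraries.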

How the results depend on the processing

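Tnfrsf10b, Casp8, Ripk1 and Mlkl were called in each of the 12 fits that left out 1 library, with log2 fold changes of 0.35 to 0.42, 0.24 to 0.30, 0.24 to 0.30 and 0.25 to 0.31, and Tnfrsf19 in 11, at -1.72 to -1.23. The number of the 10 genes called lower was 0 without PEA replicate 6 and 0 with at least 10 counts in every library, which removes Tnfrsf19, and otherwise 1. Over all genes, leaving out 1 library gave 492 to 1232 higher and 286 to 971 lower genes, and for the pathway lists 4 to 12 higher and 0 to 2 lower. Leaving out CON replicates 3 and 6 gave 471 higher and 370 lower genes in all and 5 higher and 0 lower in the lists (edgeR, with 4 lower at an unadjusted p below 0.05). With 1 library left out Tnfrsf1b lay between -0.0418 and 0.0199 and Tnfrsf12a between -0.0185 and 0.0684. Tnfrsf1b turned positive without CON replicate 1 (0.00366), 2 (0.00158), 4 (0.0181) or 5 (0.00637) or PEA replicate 4 (0.0199), and Tnfrsf12a negative without CON replicate 4 (-0.0185). Relations of the 10 genes to the scores with an adjusted p below 0.05 numbered 0 to 2 with 1 library left out, 2 without CON replicate 4 and 1 without CON replicate 6, all of Casp8. The longest transcript in place of all exons left 4 of 10 genes at their rank. Over all genes, deviations of CON and PEA libraries with the same replicate number correlated at -0.08 to 0.06. That does not decide whether the numbers pair libraries for some genes, or group libraries within a treatment. With the replicate number as a block 943 genes were higher and 627 lower, and the calls of the 10 genes were as before. In that fit Ikbkg, Spata2 and Cdh15 were not called, and 42 of 42 interferon genes were. The cause of these changes was not tested. Of 537 log2 fold changes of single genes under alternatives 464 kept direction and side of the threshold, 66 lost the call, 1 gained it and 6 changed sign. Tnfrsf19 had 2 estimated counts in PEA replicate 5.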
